A study of Mus musculus with 4 samples.

Results

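The AP-1 and related bZIP factors are 10 of the 54532 genes in the deposited count table: Fos, Fosb, Fosl1, Fosl2, Jun, Junb, Jund, Atf3, Batf and Batf3. They were taken by gene symbol, with earlier results of these data known, and the transcription factor column of the table lists each of the 10 in the bZIP class, which holds 48 genes. The counts come from mouse peritoneal macrophages of wild-type genotype that were kept in normal medium (NM, 0% 4T1) or in medium with 30% 4T1-conditioned medium (4T1-CM), the supernatant of a mouse mammary carcinoma line. Each medium was combined with DMSO, the vehicle, or with 10 µM CH223191, an inhibitor of the aryl hydrocarbon receptor (AHR). The methods describe such cells as thioglycollate-elicited macrophages of BALB/c mice. Neither the number of animals behind a library nor the time in culture is given in the sources used here. There was 1 library for each of the 4 conditions, so no difference below was checked against a replicate.

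The 4 libraries held 15535405 to 17557127 reads, and 13715 genes reached 10 reads in at least 1 of them. Of the 10 factors 9 passed this filter, and Fosb did not. Each interval given is a 95% interval that covers counting error alone and compares libraries, not conditions. Macrophage markers summed to 14200 to 40130 CPM (reads scaled to library size), and all 8 were detected in every library. The markers of other cells were far lower. Neutrophil markers summed to 67.6 to 242 CPM with Ly6g, Retnlg and S100a9 at 0 throughout, fibroblast markers to 30.1 to 149 CPM, B cell markers to 5.29 to 34.3 CPM and T cell markers to 1.48 to 2.26 CPM with Cd3d, Cd3e, Cd3g, Trac and Cd8a at 0. Dendritic cell markers summed to 1.13 to 3.77 CPM, mast cell and eosinophil markers to 5.48 to 15.7 CPM, mesothelial markers to 0.229 to 1.32 CPM, and epithelial tumour cell markers to 0.439 to 1.48 CPM with Krt19 and Krt5 at 0. In bulk RNA such as this, fewer cells of a type and less RNA per cell cannot be told apart.

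AP-1 is a dimer of basic leucine zipper proteins that binds TGANTCA, the TPA response element. Jun proteins pair with each other or with Fos proteins, whereas Fos proteins need a partner such as a Jun protein. ATF3 and the BATF proteins join the same dimers. Many of these genes are immediate early genes, which are transcribed within minutes of a stimulus such as a growth factor, a cytokine or stress and whose mRNA decays quickly, and in macrophages AP-1 works beside NF-kB and the interferon regulatory factors at inflammatory genes.

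Gene structure set the members apart before any comparison of media. Jun, Junb and Jund are the 3 members with a single exon, while the others have 3 or 4 exons. The coordinates of 9 members in the table equalled those of GENCODE M21 (GRCm38), and Fosl1 differed. Fos lies at chr12:85473890-85477273 on the plus strand, Fosl2 at chr5:32135801-32157842 on the plus strand, Jun at chr4:95049034-95052222 on the minus strand and Atf3 at chr1:191170296-191218039 on the minus strand. The AU-rich word ATTTA, which marks short-lived mRNAs, occurred after the stop codon in 8 of the 10 members and in 70.3% of the protein-coding genes that passed the filter. Batf and Batf3 were the members without it. The longer word TTATTTATT was found in Fos and Fosl2, against 8.07% of protein-coding genes. Fos carried 4.91 ATTTA words per 1000 bases after the stop codon, the densest of the members, where the median gene had 1.28.

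Promoters were compared because Fos and Fosl2 on one side and Jun and Atf3 on the other had opposite ratios between the media. RefSeq windows on GRCm38.p6 were listed for 9 members, and Fosl1 was not matched. Windows of 300 bases, of which 250 precede the transcription start, were searched on both strands for TGANTCA, for the cAMP response element with a free middle base, TGACNTCA, and for its core TGACGT, which can overlap the second motif. TGANTCA was in 0 of 9 member windows and in 7.81% of 32851 windows of all genes. TGACNTCA was in the Jun window alone (8.83% of all windows), where it read TGACATCA from base -45 to -38. TGACGT was in 3 windows (7.51% of all windows): Fos from base -66 to -61, Batf from base -98 to -93, and Atf3 from base -8 to -3 as its reverse complement ACGTCA. The RefSeq start of Fos and of Jun is the gene's first base in the count table, while those of Fosl2 and Atf3 lie inside the gene as the table has it and that of Jund lies upstream. The Fosl2 window held none of the 3 motifs. The 250 bases before the start are shown 5′ to 3′ for the 4 genes, with the matched motif in capitals, at chr12:85473640-85473889 (plus strand), chr5:32136222-32136471 (plus strand), chr4:95052223-95052472 (minus strand) and chr1:191183334-191183583 (minus strand).
Fos: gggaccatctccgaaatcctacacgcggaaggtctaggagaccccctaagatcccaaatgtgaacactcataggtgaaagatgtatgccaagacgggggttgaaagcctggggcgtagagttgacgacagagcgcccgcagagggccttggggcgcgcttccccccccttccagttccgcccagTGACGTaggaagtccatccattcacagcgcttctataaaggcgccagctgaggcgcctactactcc
Fosl2: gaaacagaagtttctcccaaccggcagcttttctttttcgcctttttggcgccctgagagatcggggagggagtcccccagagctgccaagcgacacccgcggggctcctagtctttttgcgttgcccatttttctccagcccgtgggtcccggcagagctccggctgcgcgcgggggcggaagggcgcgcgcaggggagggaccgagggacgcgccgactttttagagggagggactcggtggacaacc
Jun: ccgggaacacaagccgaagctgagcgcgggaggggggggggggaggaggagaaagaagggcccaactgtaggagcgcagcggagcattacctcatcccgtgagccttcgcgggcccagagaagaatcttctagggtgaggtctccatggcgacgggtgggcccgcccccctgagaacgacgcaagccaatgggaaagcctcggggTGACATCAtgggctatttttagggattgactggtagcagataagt
Atf3: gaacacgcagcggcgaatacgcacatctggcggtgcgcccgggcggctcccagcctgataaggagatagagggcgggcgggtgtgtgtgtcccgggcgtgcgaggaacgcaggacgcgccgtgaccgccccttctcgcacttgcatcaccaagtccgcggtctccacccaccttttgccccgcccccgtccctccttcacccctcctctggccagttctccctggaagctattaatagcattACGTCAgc

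Levels of the members were compared as FPKM, reads scaled by gene length and library size, computed from the counts and the gene lengths of the table. These lengths can differ from that of the longest coding transcript in GENCODE M21. They were 2301 against 1809 bases for Junb, 9680 against 6537 for Fosl2 and 1597 against 801 for Batf3, and equal for Jun and Jund. Orders and ratios by transcript length were not computed. Atf3, a stress-induced repressor of inflammatory genes, was the highest member in each library, at 377 (DMSO) and 389 FPKM (CH223191) in NM and at 227 and 230 FPKM in 4T1-CM. The 3 Jun genes lay between 35.8 and 68.4 FPKM. In NM with DMSO, Jund (68.1 FPKM), Jun (64.6) and Junb (62.6) could not be ordered by the lengths of the table, since neighbours overlapped within counting error. Fos stood in the fifth place in both NM libraries, in the fourth in 4T1-CM with DMSO, where it overlapped Jun (42.9 and 43.9 FPKM), and in the third in 4T1-CM with CH223191, above Jun (53.3 and 43.7 FPKM).

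The lower places in the order were held by Fosl2, Batf, Batf3, Fosl1 and Fosb. In NM with DMSO, Fosl2 (4.23 FPKM), Batf (4.02) and Batf3 (3.77) overlapped their neighbours. In 4T1-CM they were apart, at 11.7, 6.95 and 1.79 FPKM with DMSO. Fosl1 lay between 0.847 and 2.51 FPKM. Fosb was last in each library and did not exceed 0.0804 FPKM.

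**Figure D1:**
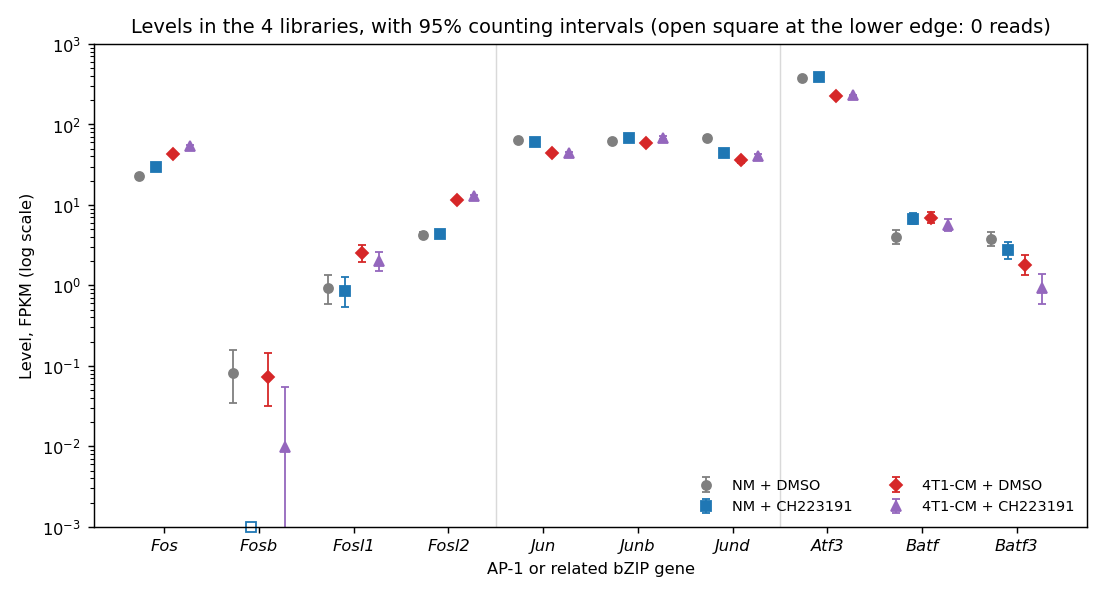
FPKM (log axis) of the 10 genes in each library, with 95% counting intervals as bars and 1 point per library. Atf3 is highest throughout (227 to 389 FPKM), the Jun genes sit between 35.8 and 68.4 FPKM, and the open square at the lower edge marks Fosb with 0 reads in NM with CH223191.

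The make-up of the pool differed between media. The Fos family took 4.64% of the members' summed FPKM in NM with DMSO and 5.79% in NM with CH223191, against 13.2% and 14.9% in 4T1-CM with DMSO and CH223191. Atf3 went the other way, with 62.0% and 64.2% in NM and 52.5% and 50.3% in 4T1-CM. The Jun family stayed between 28.4% and 33.4%, and Batf and Batf3 together between 1.28% and 2.02%. The sum itself was 608 and 605 FPKM in NM and 432 and 458 FPKM in 4T1-CM.

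The ratio of Jun family to Fos family FPKM was 6.93 (6.51 to 7.37) in NM with DMSO, 4.90 (4.63 to 5.19) in NM with CH223191, 2.44 (2.33 to 2.55) in 4T1-CM with DMSO and 2.25 (2.15 to 2.35) in 4T1-CM with CH223191. The counting intervals overlapped between the 4T1-CM libraries and between no others. Jun exceeded Fos in both NM libraries, at ratios of 2.81 and 2.02, did not differ from it beyond counting error in 4T1-CM with DMSO at 1.02 (0.964 to 1.09) and was below it in 4T1-CM with CH223191 at 0.821 (0.773 to 0.872). The ratio of Junb to Jun was 0.969 (0.919 to 1.02) in NM with DMSO, where the genes could not be ordered, 1.11 (1.06 to 1.17) in NM with CH223191, and 1.36 (1.28 to 1.44) and 1.56 (1.48 to 1.65) in 4T1-CM. These are mRNA levels, and protein and dimers were not measured.

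**Figure D2:**
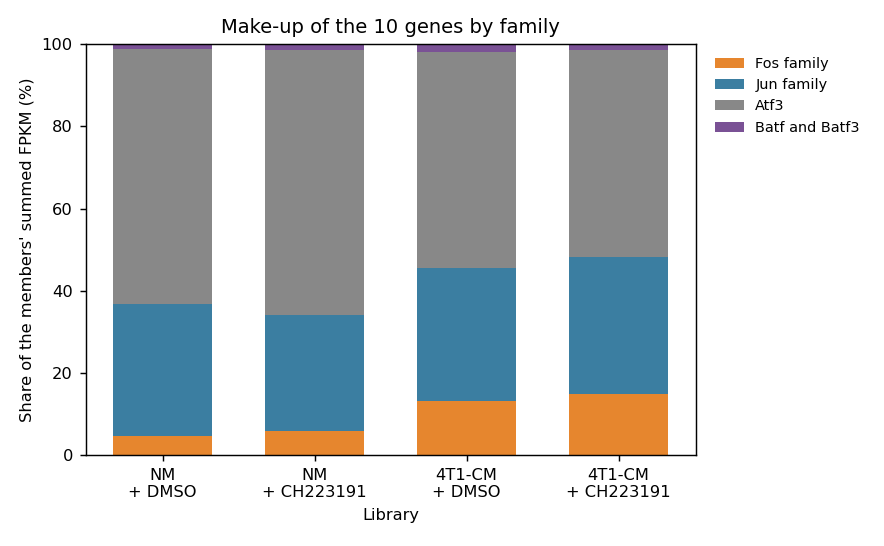
Stacked bars give the share (%) of the summed FPKM of the 10 genes held by each family in each library. The Fos family has 4.64% and 5.79% in the NM libraries and 13.2% and 14.9% in the 4T1-CM libraries, while Atf3 goes from 62.0% and 64.2% to 52.5% and 50.3%.

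The first question was how the factors differ between 4T1-CM and normal medium, which could be asked once with DMSO and once with CH223191 on separate libraries. Of the 9 factors that passed the filter, Fosl1 and Fosl2 were at least 2-fold higher in 4T1-CM in both comparisons and Batf3 at least 2-fold lower. Over all genes tested, 12.2% were at least 2-fold higher with DMSO and 12% with CH223191, and 6.11% and 7.86% at least 2-fold lower. In both comparisons at once the shares were 8.18% higher and 3.38% lower. The median log2 ratio of the 9 factors was -0.07 with DMSO and -0.13 with CH223191, where the median of all genes was 0.01 and 0.02. The factors thus went in opposite directions, with Fos, Fosl1 and Fosl2 higher in 4T1-CM and Jun, Jund, Atf3 and Batf3 lower in both comparisons. The Jund ratio with CH223191 was small, at -0.13 (-0.25 to -0.02).

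Fosl2, a Fos protein without the strong activation domain of Fos, had 653 reads (DMSO) and 671 reads (CH223191) in NM, against 1975 and 2007 in 4T1-CM. Both 4T1-CM libraries were above both NM libraries. The share of all genes with their 4 libraries in such an order was not computed, here or for the members below. Its log2 ratio was 1.46 (1.33 to 1.59) with DMSO and 1.55 (1.42 to 1.68) with CH223191, or 2.75-fold and 2.93-fold. In the same 2 comparisons 7.61% and 6.95% of all genes lay at least as far out in that direction.

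Fos, the partner of Jun in the classical AP-1 dimer, had 861 and 1117 reads in NM with DMSO and CH223191 and 1766 and 2035 in 4T1-CM. Here too both 4T1-CM values lay above both NM values. The log2 ratio was 0.90 (0.78 to 1.02) with DMSO and 0.83 (0.73 to 0.94) with CH223191, or 1.87-fold and 1.78-fold, short of 2-fold. Fosl1, which encodes a Fos-related protein, had 25 and 23 reads in NM with DMSO and CH223191 and 75 and 55 in 4T1-CM. Its log2 ratio of 1.43 (0.78 to 2.17) with DMSO and 1.21 (0.50 to 1.997) with CH223191 had wide intervals owing to these low counts. In GENCODE M21, 52.6% of the 50-base words of Fosl1 also occur in Ccdc85b on the opposite strand, and whether the counting used strand is not stated. In the count table Ccdc85b lies at chr19:5456789-5457397 and does not overlap Fosl1, which lies at chr19:5447703-5455945. Ccdc85b had 449 and 328 reads in NM with DMSO and CH223191 and 306 and 310 in 4T1-CM. The part of the shared words in the Fosl1 result was not tested.

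Fosb was close to absent, with 8 reads in each DMSO library, 0 with CH223191 in NM and 1 with CH223191 in 4T1-CM. The medium made no detectable difference at this depth. The 0 allows up to 3 reads, which is 0.189 CPM in that library.

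Among the Jun genes, Jun had 3283 and 3053 reads in NM with DMSO and CH223191 and 2453 and 2266 in 4T1-CM. Both 4T1-CM values lay below both NM values, at a log2 ratio of -0.56 (-0.63 to -0.48) with DMSO and -0.46 (-0.54 to -0.38) with CH223191. Junb, which often restrains Jun, had 2296, 2452, 2402 and 2555 reads in NM with DMSO, NM with CH223191, 4T1-CM with DMSO and 4T1-CM with CH223191. Its ratios of -0.07 (-0.15 to 0.01) and 0.03 (-0.05 to 0.11) included no difference. With the GC trend removed they were 0.28 and 0.22, outside both intervals, and Junb holds 62.6% G and C. Its range of 0.20 log2 units over the 4 libraries was the smallest of the members. The end of Junb overlaps 351 bases of Prdx2 on the opposite strand, which had 1648 to 2460 reads, and Jun overlaps 689 bases of Junos, which had 13 to 21 reads.

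Jund, a Jun protein that is usually present without a stimulus, had 1810 reads (DMSO) and 1187 reads (CH223191) in NM, against 1044 and 1105 in 4T1-CM. The library of NM with DMSO stood above the other 3. The log2 ratio between media was therefore -0.93 (-1.04 to -0.82) with DMSO and -0.13 (-0.25 to -0.02) with CH223191. Jund is rich in G and C, with 67.2% against a median of 49.8% over the genes that passed the filter. The 40 other genes within 2 percentage points of its GC content had a median log2 ratio of -0.73 with DMSO and -0.21 with CH223191, and of -0.49 between the 2 NM libraries. With the trend on GC content removed, Jund stood at -0.34 with DMSO and -0.03 with CH223191. With the trend on gene length removed, the value with CH223191 turned to 0.11. The part of base composition in the Jund result was not tested. Gm11175, annotated on the opposite strand over 919 bases of Jund, had 0 reads in all 4 libraries.

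Atf3 had the most reads, 12939 and 13322 in NM with DMSO and CH223191 and 8539 and 8056 in 4T1-CM. Both 4T1-CM values lay below both NM values. The log2 ratio was -0.74 (-0.77 to -0.70) with DMSO and -0.76 (-0.80 to -0.72) with CH223191, or 1.66-fold and 1.69-fold lower in 4T1-CM. Batf3, known for its role in the development of cross-presenting dendritic cells, had 96 and 70 reads in NM and 50 and 24 in 4T1-CM. Its log2 ratio was -1.07 (-1.60 to -0.57) with DMSO and -1.56 (-2.31 to -0.89) with CH223191, or 2.10-fold and 2.94-fold lower. With the GC trend removed it was -0.71 and -1.36, and with the length trend removed -0.94 and -1.31, so with DMSO it no longer reached 2-fold. The dendritic cell markers summed to 2.32 and 1.13 CPM in NM and 3.77 and 3.20 CPM in 4T1-CM, near the detection limit. Ccr7 went from 0 and 1 reads to 24 and 13, and Clec9a from 6 and 0 to 23 and 13. Both passed the filter through the 4T1-CM libraries alone, so their direction was not independent of the filter. Zbtb46, which also passed, had 20 and 14 reads in NM and 16 and 22 in 4T1-CM. Cd209a, which did not pass, went from 8 and 2 reads to 0 and 0. The part of these markers in the Batf3 result was not tested. Batf, a factor of lymphocytes and activated myeloid cells, had 90 and 151 reads in NM and 171 and 128 in 4T1-CM. It was higher in 4T1-CM with DMSO, at 0.79 (0.41 to 1.18), and not with CH223191, at -0.27 (-0.62 to 0.08).

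**Figure D3:**
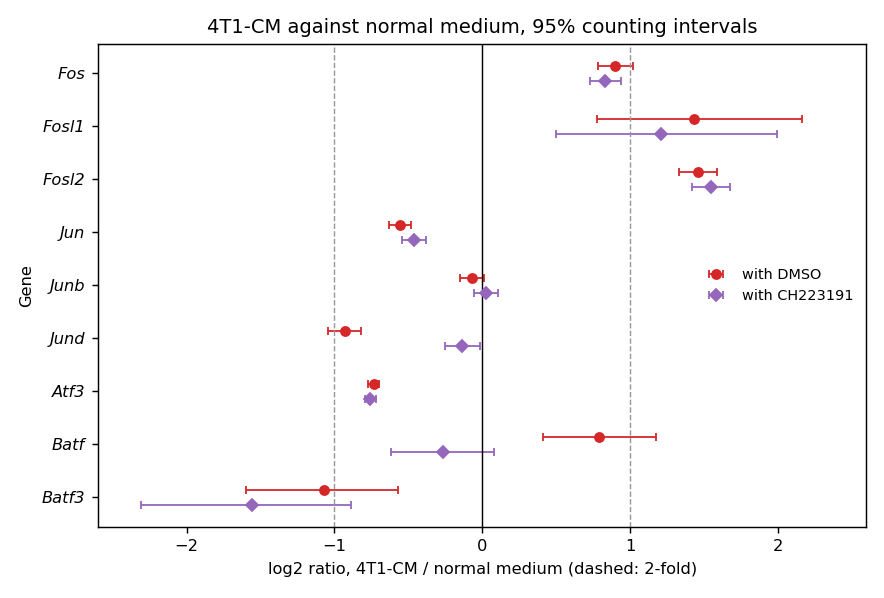
Log2 ratio of 4T1-CM to normal medium for the 9 genes that passed the filter, with DMSO (circles) and with CH223191 (diamonds), bars giving 95% counting intervals and dashed lines 2-fold. Fos, Fosl1 and Fosl2 lie right of 0 in both comparisons, and Jun, Jund, Atf3 and Batf3 left of 0 in both. Jund and Batf are the genes whose bars are far apart.

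The p-values come from an additive fit of medium and inhibitor over the 4 libraries, which leaves 1 residual degree of freedom and assumes that the effects of medium and inhibitor add. In the quasi-likelihood test of edgeR with Benjamini-Hochberg adjustment over 13715 genes, 3 of the 9 factors were higher in 4T1-CM, where 16.4% of all genes were, and 4 were lower, where 16.2% of all genes were. Those that rose were Fosl2 (edgeR adjusted p = 9.05e-06), Fos (0.000397) and Fosl1 (0.00789). Atf3 (edgeR adjusted p = 0.000982), Batf3 (0.00501), Jun (0.0107) and Jund (0.0371) fell. Junb (edgeR adjusted p = 0.917) and Batf (0.477) did not pass. With the additive fit of DESeq2, the calls that passed were Fos and Fosl2, higher (9.14% of the 13183 genes with an adjusted p), and Jun and Atf3, lower (9.39%). Batf3 (DESeq2 adjusted p = 0.0659), Jund (0.0736) and Fosl1 (0.118) did not pass there. The ratios of Jund and Batf differed most between the 2 comparisons, and the fit takes such a difference as spread.

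The second question was whether CH223191 shifts these factors in either medium. 0 of the 9 factors were at least 2-fold higher or lower with CH223191 than with DMSO, in NM, where 4.84% of all genes were higher and 3.31% lower, or in 4T1-CM, where 2.75% were higher and 2.66% lower. In the additive fit of edgeR, 0 of 9 had an adjusted p under 0.05 for the inhibitor, 2 had an unadjusted p under 0.05, and the additive fit of DESeq2 gave 0 by either measure, with no adjusted p for Fosl1. Over all 13715 genes edgeR called 0.0729% higher and 0.00729% lower by adjusted p. DESeq2 called 0.127% and 0.00975% of the 10258 genes to which it gave an adjusted p. An unadjusted p under 0.05 for the inhibitor was found for 880 of the 13715 genes in edgeR and for 202 in DESeq2.

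Fos had the same direction in both media, with a log2 ratio of CH223191 to DMSO of 0.38 (0.25 to 0.51) in NM and 0.31 (0.22 to 0.41) in 4T1-CM. Its edgeR p for the inhibitor was 0.017 unadjusted and 0.727 adjusted. Batf3 was lower with CH223191, at -0.45 (-0.92 to 0.01) in NM and -0.94 (-1.72 to -0.22) in 4T1-CM, with an edgeR p of 0.0373 unadjusted and 0.762 adjusted. Atf3 differed little, at 0.05 (0.01 to 0.08) in NM and 0.02 (-0.02 to 0.07) in 4T1-CM. For Fosl2 the values were 0.04 (-0.11 to 0.20) and 0.13 (0.04 to 0.22), for Jun -0.10 (-0.17 to -0.03) and -0.01 (-0.09 to 0.08), and for Junb 0.10 (0.02 to 0.18) and 0.20 (0.12 to 0.28). The interval of Fosl1 included 0 in both media.

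Jund and Batf differed between media in the sign of this ratio. Jund was at -0.61 (-0.71 to -0.50) in NM and 0.19 (0.07 to 0.31) in 4T1-CM. Without the GC trend the NM value was -0.27. Batf was at 0.75 (0.36 to 1.14) in NM and -0.31 (-0.65 to 0.03) in 4T1-CM. In Fosb, the 1 read with CH223191 over both media stood against 16 with DMSO, a ratio of 0.0650 (0.00155 to 0.419) of scaled reads. In 4T1-CM alone, 1 read against 8 gave a ratio of 0.135 (0.00304 to 1.005), which includes no difference. In NM, 0 reads against 8 put the upper end of the log2 ratio at -0.77. The share of genes of such low counts with a similar split was not computed. Fosb did not reach 10 reads in a library, so it was in no fit.

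**Figure D4:**
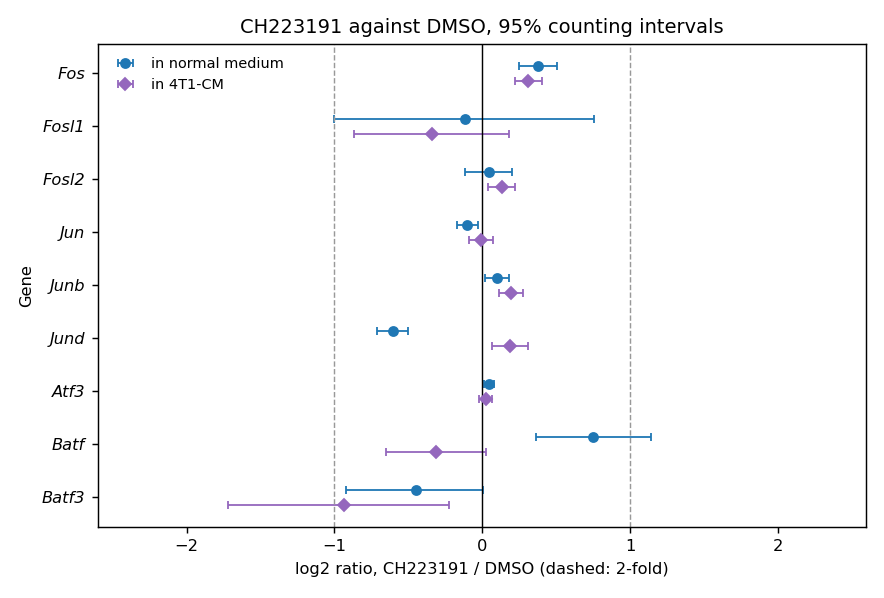
Log2 ratio of CH223191 to DMSO for the same 9 genes in normal medium (circles) and in 4T1-CM (diamonds), with 95% counting intervals and dashed lines at 2-fold. The points of all 9 genes lie inside the dashed lines, and Jund and Batf have points on opposite sides of 0.

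The response to 4T1-CM was then compared between the inhibitor and its vehicle. The difference is the log2 ratio with CH223191 minus that with DMSO, with its counting interval. It was -0.02 (-0.08 to 0.03) for Atf3, -0.07 (-0.22 to 0.09) for Fos and 0.09 (-0.09 to 0.27) for Fosl2. Differences at least as large were found in 95.2%, 85.4% and 81.0% of all genes. Jun had 0.10 (-0.01 to 0.20) and Junb 0.10 (-0.02 to 0.21), sizes that 79.8% and 79.1% of all genes reached. For Fosl1, at -0.22 (-1.17 to 0.73), and Batf3, at -0.49 (-1.31 to 0.34), the intervals were wide and allow a 2-fold difference. Jund had 0.80 (0.63 to 0.96), a size that 15.1% of all genes reached, and 0.31 once the GC trend was removed. Batf had -1.06 (-1.56 to -0.56), which 10.3% of all genes reached, and -0.99 without the GC trend and -0.94 without the trend on gene length. Over all genes 11.2% had responses at least 2-fold apart. With 1 library per condition this interaction has no residual degree of freedom and was not tested.

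Fixed lists of related genes, chosen with earlier results of these data known, were read beside the factors, as mRNA levels alone. Among 36 other bZIP factors that passed the filter, 4 were at least 2-fold higher in 4T1-CM in both comparisons and 1 was lower, where 8.18% and 3.38% of all genes were, so the counts lie near the background. The higher genes were Creb5, with log2 ratios of 2.81 and 3.15 (with DMSO and with CH223191), Nfil3, a repressor of circadian and cytokine genes, with 2.70 and 2.52, Bach2 with 1.22 and 1.44, and Crem, a cAMP-responsive modulator, with 1.132 and 1.008. Crem with CH223191 fell short of 2-fold with DESeq2 size factors (0.998), without the filter on low counts (0.984) and with a prior count of 5 (0.986), which leaves 3 genes. Ddit3, which encodes the endoplasmic reticulum stress factor CHOP, was lower, at -1.39 and -1.34. The list's median was 0.00 with DMSO and 0.18 with CH223191.

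Of 19 other immediate early genes, 4 were higher in both comparisons and 1 was lower, beside 8.18% and 3.38% of all genes. Nfkbiz, a co-regulator of NF-kB, had 50 and 35 reads in NM with DMSO and CH223191 and 1130 and 1081 in 4T1-CM, a log2 ratio of 4.35 and 4.90. Ier3 had 4.22 and 4.04, Nr4a1, an orphan nuclear receptor, 3.02 and 2.43, and Nfkbia, the inhibitor of NF-kB, 2.19 and 2.20. Egr2, a zinc finger factor, was lower, at -1.39 in both. The median of the list was 0.23 and 0.51. Larger ratios than those of any of the 9 factors thus occurred in this class.

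Upstream, 0 of 20 kinases and 1 of 8 regulators of the Fos and Jun promoters were at least 2-fold apart in both comparisons. Over all genes 8.18% were higher and 3.38% lower. The regulator was Elk3, a ternary complex factor that acts with serum response factor, at 1.51 and 1.48. Of 10 heat shock genes, a check for general stress, 0 were at least 2-fold apart in both, with medians of 0.02 and -0.29. The partners of BATF showed 0 of 2. The same 8.18% and 3.38% of all genes stand beside the counts of heat shock genes and of BATF partners. Irf4 had 108, 78, 96 and 55 reads in NM with DMSO, NM with CH223191, 4T1-CM with DMSO and 4T1-CM with CH223191, and Irf8 had 2370, 2481, 2653 and 2760.

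Downstream, 15 genes of a fixed list of known AP-1 targets passed the filter, of which 6 were at least 2-fold higher in 4T1-CM in both comparisons and 2 lower, beside 8.18% and 3.38% of all genes, with a median of 0.91 and 0.80. Il1b, an inflammatory cytokine, had 2 and 8 reads in NM and 3162 and 2252 in 4T1-CM. Il6 had 0 reads in both NM libraries and 10 in each 4T1-CM library. Il1b and Il6 passed the filter through the 4T1-CM libraries alone, so their place among the higher genes was not independent of the filter. Timp1, an inhibitor of metalloproteinases, had log2 ratios of 4.87 and 4.24, and Vegfa, an angiogenic factor, had 3.75 and 3.63. Mmp9 and Ptgs2 were the other higher genes, and like Timp1 and Vegfa they had at least 10 reads in every library. Ccnd1, which encodes cyclin D1, was lower at -1.83 and -1.68, and Plau, the urokinase gene, at -1.29 and -1.45. These genes have other regulators too, and binding of AP-1 was not measured in these libraries. With CH223191 against DMSO, 0 genes of any of these lists were at least 2-fold apart the same way in both media, where 0.649% of all genes were higher and 0.481% lower.

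**Figure D5:**
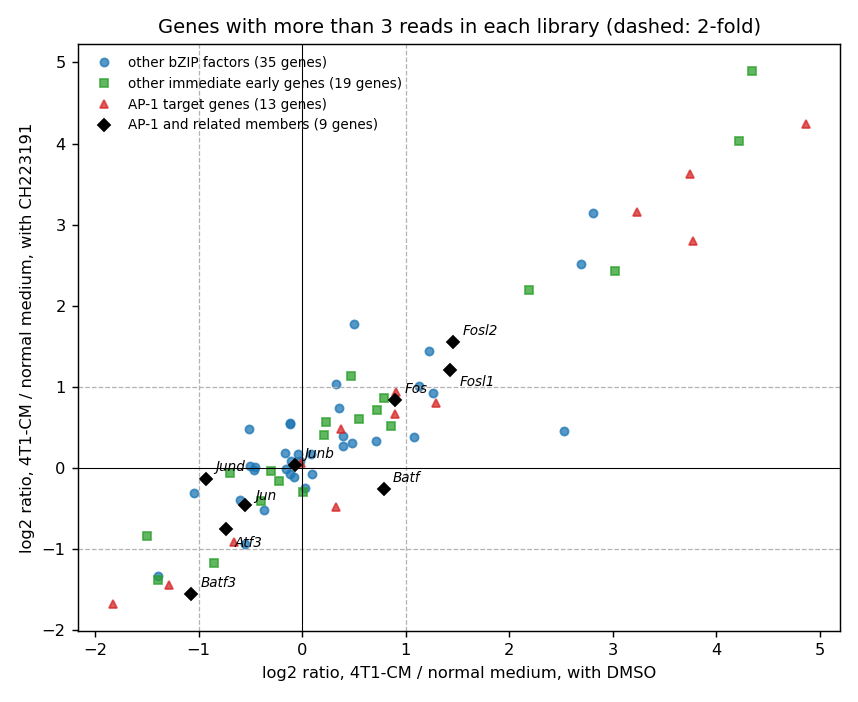
Each point is a gene with more than 3 reads in each library, placed by its log2 ratio of 4T1-CM to normal medium with DMSO (x axis) and with CH223191 (y axis), for the 9 factors and 3 lists. Fosl1 and Fosl2 lie in the upper right beyond 2-fold and Batf3 in the lower left, and genes of the other lists reach larger ratios.

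Genes with the most similar pattern over the 4 libraries were sought for the 2 factors with the widest range, by the Euclidean distance of centred log2 CPM searched over genes whose mean reached 10 CPM. Nearest to Fosl2 were Cyth1, Uhrf1bp1 and Picalm, at distances of 0.06 to 0.07 log2 units. Picalm had 2739, 2851, 7971 and 8058 reads in NM with DMSO, NM with CH223191, 4T1-CM with DMSO and 4T1-CM with CH223191. Nearest to Batf3 was Arap3, at 0.08, with 378, 279, 191 and 100 reads, followed by Dna2 and Tspan7. With 4 libraries such a likeness is a description only.

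Markers of other cells moved between the media as well. The fibroblast markers summed to 63.0 and 30.1 CPM in NM and 149 and 127 CPM in 4T1-CM. Of the 5 that passed the filter, 4 were at least 2-fold higher in both comparisons, beside 8.18% of all genes. The neutrophil markers summed to 67.6 and 74.6 CPM in NM and 242 and 181 CPM in 4T1-CM, but the list was mixed. Mmp8 went from 2.20 and 1.32 CPM to 122 and 46.7 CPM, Cxcr2 from 12 and 9 reads to 2 and 0, and Ly6g, Retnlg and S100a9 stayed at 0. The macrophage markers summed to 14200 and 18400 CPM in NM and 37600 and 40130 CPM in 4T1-CM. Most of this was Lyz2, with 11890 and 15190 CPM in NM and 32960 and 35570 CPM in 4T1-CM. Of the 8 macrophage markers, 3 were at least 2-fold higher in both comparisons, beside 8.18% of all genes. Mrc1 was lower, at log2 ratios of -0.778 with DMSO and -0.615 with CH223191. The B cell markers summed to 20.2 and 34.3 CPM in NM and 7.94 and 5.29 CPM in 4T1-CM. That sum was mostly Ighm, with 317 and 540 reads in NM and 128 and 67 in 4T1-CM. Ighm was the 1 marker of its list that passed the filter, and Cd79b went from 1 and 1 reads to 5 and 9. Mast cell and eosinophil markers summed to 15.75 and 13.9 CPM against 5.998 and 5.479 CPM. This was mostly Siglecf, with 251 and 221 reads against 105 and 88, while Mcpt4, Kit, Fcer1a, Epx and Prg2 stayed at 0. The part of these markers in the results for the AP-1 genes was not tested.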

How the data were processed

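The file deposited by the authors is 1 table of raw counts, whole numbers of reads for each gene with no normalization. The submitters' processing notes name HISAT2 2.0.5 and DESeq2 without their roles. The study's methods name FeatureCounts for its alveolar macrophage libraries. For the libraries used here the counting tool and its use of strand are not given in the sources used here. All 4 columns were matched to samples through their names. The 54532 rows were kept, and 103 entries with a repeated symbol were named by identifier.

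Libraries were brought to a common scale by TMM (edgeR 4.0.16, R 4.3.3), computed over the genes that reached 10 reads in 1 library or more. Log2 ratios used a prior count of 0.5, and their 95% intervals are exact Clopper-Pearson intervals of the split of reads between a pair of libraries. Intervals of levels and of the difference between ratios also cover counting error only. The additive fits used edgeR and DESeq2 1.42.0. GC content and gene words came from GENCODE M21 transcripts. The trends of the ratios on GC content and on gene length were removed with a lowess curve (statsmodels 0.14.6), an alternative chosen after seeing the data.

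At least 2-fold served as the rule of size. The members and lists were chosen with earlier results of these data known. Named genes are the 10 members and, per list, up to 4 genes in each direction at least 2-fold apart the same way in both comparisons that share no library, ranked by the smaller ratio, plus the 3 nearest genes of 2 members. Genes beyond that rule (Mmp9, Ptgs2, Irf4, Irf8 and genes that overlap a member) were named after their values were seen. Macrophage, neutrophil, fibroblast, dendritic, T, B, mast cell and eosinophil, epithelial and mesothelial markers were summed as CPM. Fits were tested on simulated data. The first criterion, on sets of genes, was missed by 1 set and was then replaced by one on the mean error over all changed genes, which was met. Python 3.11.15 with numpy 2.4.6, pandas 2.3.3, scipy 1.17.1 and matplotlib 3.10.9 was used.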

Additional observations from a re-analysis of the deposited data

Results flagged for a closer look

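The ratio of CH223191 to DMSO for Jund had opposite signs in the 2 media. The log2 ratio of CH223191 to DMSO was -0.605 in NM and 0.19 in 4T1-CM, and both counting intervals left out 0. The difference between the media was not tested, since each condition had 1 library. The 40 genes of similar GC content had a median of -0.49 in NM and 0.04 in 4T1-CM for the same ratio.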

How the results depend on the processing

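No paired analysis was possible because each condition has 1 library and the labels give no replicate numbers. For the same reason no library could be left out of a comparison. The sizes, directions and counts of the members kept their values within counting error with DESeq2 size factors, a prior count of 5, at least 10 reads in every library and protein-coding genes alone. Total counts moved 2 of 36 ratios out of their counting intervals, by at most 0.06. Without the filter on low counts Fosb entered, with at most 8 reads in a library, and it was at least 2-fold lower with CH223191 in both media. The share of all genes without the filter was not computed. With the additive fit of DESeq2, 2 members instead of 4 were called lower in 4T1-CM and 2 instead of 3 higher, and the cause was not tested. With a fit of medium alone in edgeR, 3 were higher, where 15% of all genes were, and 3 lower, where 14.8% were. Removing the trend on GC content moved 13 of 36 ratios out of their counting intervals, most of all that of Jund with DMSO (to -0.34), and took Batf3 with DMSO below 2-fold (to -0.71). Removing the trend on gene length moved 11, took Batf3 with DMSO below 2-fold (to -0.94) and Fos with CH223191 past it (to 1.005), and turned Jund with CH223191 to 0.11. The ratios whose sign turned under these 2 or under total counts were all at most 0.13 from 0. The Fos family's share of the members was larger by reads than by FPKM, from 7.01% to 8.22% in NM and 20.7% to 22.5% in 4T1-CM. Of 336 counts over the 7 lists of related genes, 7 moved by more than 1.5 times, each between small numbers. Depth limits Fosb, Fosl1 and Batf3, with at most 96 reads in a library, and 1 library per condition limits every comparison.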
